A study of Mus musculus with 12 samples.

Results

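Heart RNA of mice given gastrodin at 5 mg/kg/day was compared with that of mice given vehicle, both in the AngII arm of the study. The comparison takes 4 of the 12 libraries of the series, namely the raw count columns of AngII 5 mg numbers 3 and 4 and of AngII vehicle numbers 1 and 2. All mice were wild type C57BL/6 at postnatal day 45. The AngII arm is a cardiac hypertrophy model made with angiotensin II, and the sham arm had the operation without it. In each arm the labels give vehicle (written there as menstruum), gastrodin at 5 mg/kg/day or gastrodin at 50 mg/kg/day, given into the stomach for 7 days, with 2 libraries in each of the 6 groups. The labels do not say whether the libraries of a group came from separate animals, so p-values here measure only the spread between these samples, which may be technical. The sources used here give neither the dose of angiotensin II nor the sex of the mice.

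Gastrodin is a phenolic glucoside from the orchid Gastrodia elata. Angiotensin II acts mainly through the AT1 receptor on vessels and heart, where it raises blood pressure and is known to drive cardiomyocyte growth, a return of fetal genes and fibrosis. Heart muscle burns mostly fatty acids, and shifts between fatty acids and glucose through nuclear receptors of the PPAR family and through glucose-sensing factors of the Mondo family. MondoA, encoded by Mlxip, is a basic helix-loop-helix leucine zipper protein that responds to glucose 6-phosphate. It binds DNA together with Mlx, and its best known targets are Txnip and Arrdc4, which restrain glucose uptake.

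The 4 libraries held 72130505 to 78604709 counts, but mitochondrial transcripts and 7 mitochondria-like nuclear genes took most of them. The remaining genes held 13.97 and 9.478% of counts in vehicle numbers 1 and 2, and 20.29 and 7.491% in 5 mg numbers 3 and 4, with a count in 18617, 18111, 19761 and 17000 genes. Precision therefore differs between libraries, and number 4 is the shallowest of the 4. AngII 5 mg number 4 also stood apart from its arm. On the first principal component of log2 CPM, which held 30% of the variance, it lay at 12.2, whereas the other 5 AngII libraries lay between -91.3 and -40.3 and the sham libraries between 37.3 and 78.6. Its log2 CPM correlated with those of number 3 at r = 0.883 and with those of vehicle number 2 at r = 0.921, across genes, which are not independent replicates. The median absolute difference per gene was 0.743 (log2) between the 5 mg libraries, 0.474 between the vehicle libraries and 0.311 between the 5 mg and vehicle means. Whether the label of 5 mg number 4 is right could not be checked from the data used here. Medians of gene lists below are therefore also given without number 3 or number 4 where that turns their sign or moves them by over 1.5 times, and so are some fold changes of single genes. Heart muscle RNA was abundant in all 4 libraries. The 26 ventricular cardiomyocyte markers, all tested, summed to 12096 and 9034 CPM in vehicle and 12813 and 8653 CPM at 5 mg.

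Levels are CPM (counts-per-million of the TMM-adjusted library size). Values of vehicle are always in the order of numbers 1 and 2, and those of 5 mg in the order of numbers 3 and 4. Fold changes are log2, 5 mg minus vehicle, with the standard error (SE) of edgeR's quasi-likelihood fit over all 12 libraries. A gene is called where its Benjamini-Hochberg adjusted p over all genes is below 0.05.

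Mlxip, which encodes MondoA, rose at 5 mg. It was the 1 gene of 16723 tested to pass in this fit (0.00598% higher, 0% lower). It stood at 0.849 and 0.987 CPM in vehicle and 12.2 and 6.59 CPM at 5 mg, with raw counts of 87, 78, 1812 and 366. The groups did not overlap, and the lower 5 mg library held several times the level of either vehicle library. Group means were 0.918 ± 0.0977 and 9.38 ± 3.95 CPM (SD, n = 2 each), a log2 fold change of 3.36 ± 0.38 with an edgeR adjusted p of 0.0140. Its level at 50 mg was 0.802 and 0.985 CPM. In the sham arm it was 4.01 and 5.37 CPM in vehicle, 4.63 and 5.25 CPM at 5 mg and 5.11 and 6.54 CPM at 50 mg. Both AngII 5 mg libraries thus lay above all 6 sham libraries, number 4 only just, and the other 4 AngII libraries lay below all 6. Mlxip lies on chromosome 5 at 123394798 to 123457932 of GRCm38, on the plus strand. The gene Gm15747 overlaps it on the opposite strand and had 0 counts in each of the 4 libraries.

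The call of Mlxip rested on both vehicle libraries. Leaving out vehicle number 1 or 2 gave an edgeR adjusted p of 0.235 or 0.0990 for Mlxip, at log2 fold changes of 3.25 and 3.45, and fits of only the 4 libraries or only the AngII arm gave 0.443 and 0.197. On log2 of the deposited TPM plus 1, limma gave 1.94 with an adjusted p of 1. The call held without 5 mg number 3 (2.82) and without number 4 (3.73). The pipeline was also run on counts simulated for this comparison over 16723 genes. It recovered 6% of genes changed by 2-fold, 66% of those changed by 4-fold and 90% of those changed by 8-fold. The changed genes had a mean of at least 1 CPM, and 50 at each fold size were changed at once. With many genes changed together the adjusted threshold is easier to pass, so these shares may be too high where few genes differ. Changes near 2-fold were thus mostly not detectable at this depth and number of libraries.

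**Figure D1:**
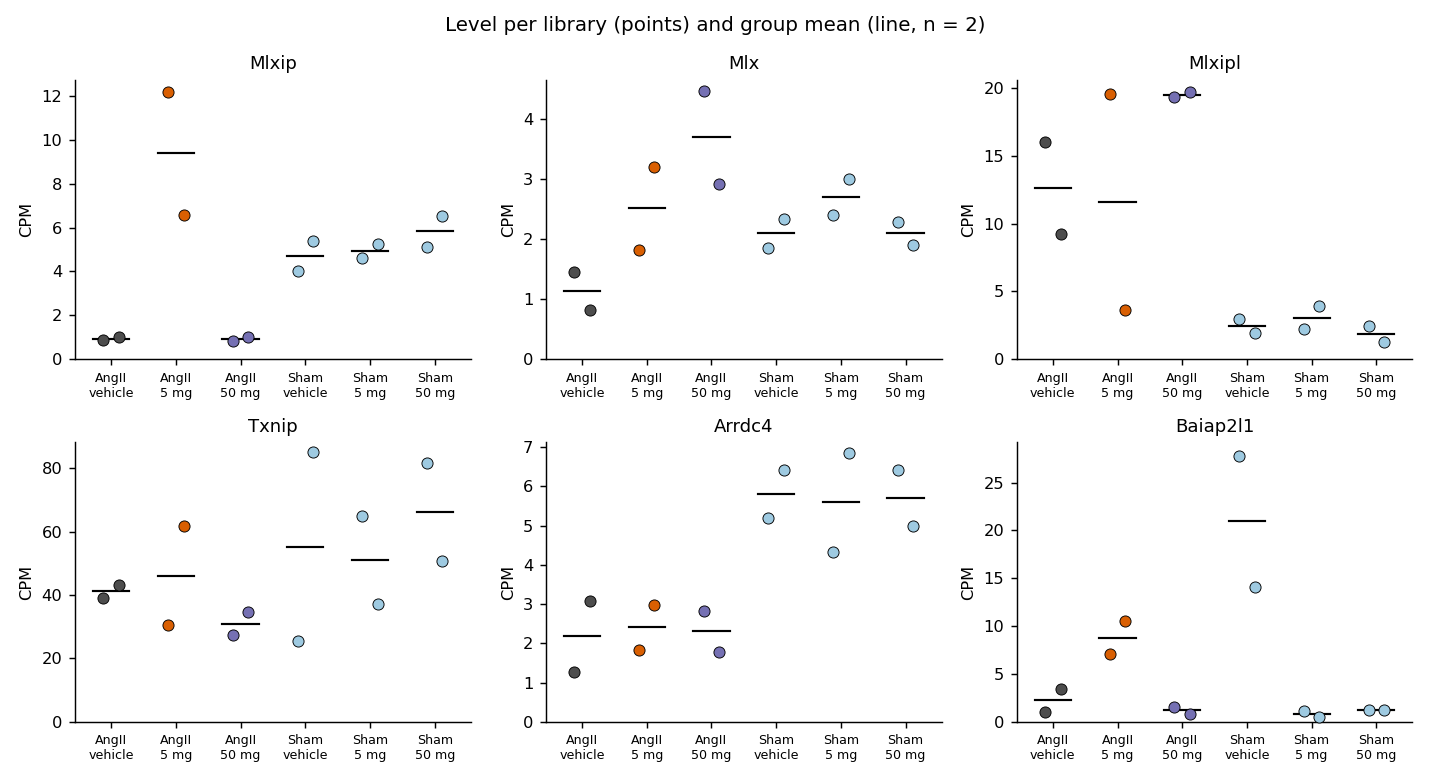
Level in CPM (vertical axes, each from 0) of Mlxip, its partner Mlx, its relative Mlxipl, the targets Txnip and Arrdc4, and Baiap2l1, in the 12 libraries by group, with points for libraries and lines for group means of 2. The 5 mg points of Mlxip are at 12.2 and 6.59 CPM against 0.849 and 0.987 CPM in AngII vehicle, whereas the Txnip and Arrdc4 points of these groups overlap.

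None of the listed partners and targets of MondoA passed the test. Of 25 tested members of the list of MondoA, partners and target genes (26 listed), Mlxip rose and 24 did not pass. Txnip, which encodes an inhibitor of glucose uptake, stood at 39.0 and 43.3 CPM in vehicle and 30.4 and 61.9 CPM at 5 mg (log2 fold change 0.16 ± 0.51). The 5 mg values lie on either side of the vehicle values, and the fold change is -0.44 without number 4. Arrdc4, an arrestin-like relative of Txnip, stood at 1.28 and 3.07 CPM in vehicle and 1.84 and 2.99 CPM at 5 mg (0.15 ± 0.45), again with overlapping groups. Mlx, the obligate dimer partner, stood at 1.44 and 0.810 CPM in vehicle and 1.81 and 3.20 CPM at 5 mg (1.14 ± 0.43, edgeR adjusted p of 1), and at 4.47 and 2.92 CPM at 50 mg. Mlxipl, which encodes the related factor ChREBP, stood at 16.1 and 9.25 CPM in vehicle and 19.5 and 3.60 CPM at 5 mg (-0.12 ± 0.60). Its 5 mg libraries lie above and below both vehicle libraries. Pfkfb2, a regulator of glycolytic flux, stood at 9.34 and 6.86 CPM in vehicle and 5.71 and 4.27 CPM at 5 mg (-0.70 ± 0.44). Over the 25 members the median log2 fold change was 0.12, with 16 higher and 9 lower, beside a median of 0.01 and 51.5% higher over all genes tested. The list's median is -0.07 without number 3 and 0.22 without number 4.

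Of the 25 members, 4 did not overlap as higher (16%) and 3 as lower (12%), beside 11.5% of all genes in each direction. Mlxip, Mlx and Pfkfb2 are among them, and Txnip, Arrdc4 and Mlxipl are not. Without number 4 the fold change of Mlx is 0.68 and that of Arrdc4 -0.24, and Mlxipl is at -1.84 without number 3 and 0.63 without number 4. Txnip overlaps Gm15441 on the opposite strand.

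The site through which MondoA and Mlx act is a carbohydrate response element, a pair of E-box-like motifs at a fixed distance. Searched on both strands as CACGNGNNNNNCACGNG in RefSeq promoter windows of GRCm38.p6 (250 bases before to 50 after the start), it was found in the window of Txnip and in no other of the 24 listed genes with a window, Mlxip among them. Over all 27025 genes with a window, 0.0555% held it. The stretch is shown because it is the textbook site of this factor in the target whose level is given above, with the fixed letters of the motif in capitals.

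Txnip, chr3:96557867-96557893, plus strand: ctgtgCACGaGggctgCACGaGcctcc

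The match ends 68 bases before the start of Txnip. It describes these letters and says nothing about binding in these hearts.

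Besides Mlxip, no gene passed over all genes, and the adjusted p of the 29 described next was 0.904 to 1 in edgeR. Cep85, Slc39a7 and Pxdn were the lower genes of smallest p. Of all genes tested, 143 higher (0.855%) and 148 lower (0.885%) had an unadjusted p below 0.05 in edgeR. Together these shares are smaller than the 0.05 that such a threshold passes where no gene differs. Libraries of the groups did not overlap for 1926 higher (11.5%) and 1929 lower (11.5%). The genes in this and the following paragraphs are the 15 higher and 15 lower of smallest p that do not overlap, so their separation was part of how they were chosen. Cep85, a centrosomal protein gene, stood at 9.44 and 7.17 CPM in vehicle and 2.31 and 2.63 CPM at 5 mg (-1.75 ± 0.32), while 50 mg libraries were at 9.55 and 9.10 CPM. Pxdn, peroxidasin, which crosslinks collagen IV of basement membranes, stood at 29.7 and 22.9 CPM in vehicle and 5.83 and 10.7 CPM at 5 mg (-1.67 ± 0.35). Slc39a7, a zinc transporter that releases zinc from the endoplasmic reticulum, stood at 6.43 and 9.07 CPM in vehicle and 1.51 and 2.77 CPM at 5 mg (-1.87 ± 0.37). That value depends on how reads were shared out. Slc39a7 overlaps Gm20427 on the same strand, and with overlapping genes summed its log2 fold change is -0.36.

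Plin4, Pdk4 and Mgll, which encode proteins of lipid and fuel use, were also among the 15 lower genes. They were named by the rule and not as a tested group. Plin4, a coat protein of lipid droplets, stood at 45.5 and 32.9 CPM in vehicle and 12.2 and 3.29 CPM at 5 mg (-2.33 ± 0.57). The fold change is -1.68 without number 4 and -3.59 without number 3, and both 50 mg libraries (47.8 and 44.9 CPM) were near the vehicle level. Pdk4, the kinase that shuts off pyruvate oxidation when fatty acids are burned, stood at 24.8 and 36.8 CPM in vehicle and 8.86 and 12.5 CPM at 5 mg (-1.53 ± 0.44). The same direction was measured at 50 mg (7.16 and 14.4 CPM) and in the sham arm, with 49.3 and 47.5 CPM in vehicle and 18.3 and 20.3 CPM at 5 mg (-1.33 ± 0.44, not called). Mgll, monoacylglycerol lipase, stood at 32.9 and 5.07 CPM in vehicle and 4.45 and 4.41 CPM at 5 mg (-2.1 ± 0.65). Vehicle number 1 decides that value, since the log2 fold change without it is -0.20.

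The other lower genes had smaller or less even differences. Slc35f6 stood at 5.95 and 6.74 CPM in vehicle and 2.63 and 1.55 CPM at 5 mg (-1.59 ± 0.36). Aasdh stood at 4.58 and 3.97 CPM in vehicle and 1.38 and 1.67 CPM at 5 mg (-1.49 ± 0.37), with little spread inside either group. Cog3, a subunit of a Golgi tethering complex, stood at 6.11 and 4.52 CPM in vehicle and 0.632 and 2.02 CPM at 5 mg (-2.03 ± 0.54). The 5 mg libraries of Cog3 differed from each other more than those of Aasdh, with number 3 the lower, and the fold change is -3.07 without number 4. Atp2b4, a plasma membrane calcium pump, stood at 5.70 and 5.71 CPM in vehicle and 1.31 and 3.02 CPM at 5 mg (-1.41 ± 0.38), with -0.94 without number 3 and -2.12 without number 4. Luc7l, a splicing factor gene, stood at 18.6 and 15.3 CPM in vehicle and 9.43 and 6.16 CPM at 5 mg (-1.12 ± 0.31). Its sham vehicle libraries held 3.01 and 3.35 CPM, so the 5 mg level lay between AngII vehicle and sham vehicle. At 50 mg in the AngII arm Luc7l was near or above vehicle, at 17.9 and 25.2 CPM. In the sham arm it was higher at 5 mg than in vehicle, at 4.98 and 6.46 CPM. Frmd6, Plekha1 and Iqsec1 had log2 fold changes of -1.14 ± 0.30, -1.58 ± 0.47 and -1.12 ± 0.33. Myl9 is given with the smooth muscle genes. Plin4, Iqsec1 and Mgll share exon bases with a gene on the opposite strand, and Slc35f6 and Atp2b4 hold a microRNA gene on their own strand.

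Among the 15 higher genes, Gpi1 and Slc16a1 belong to the glycolysis list. Gpi1, glucose-6-phosphate isomerase, stood at 66.1 and 53.1 CPM in vehicle and 156 and 102 CPM at 5 mg (1.11 ± 0.31), and at 129 and 146 CPM at 50 mg. Slc16a1, the lactate and pyruvate carrier MCT1, stood at 4.21 and 6.44 CPM in vehicle and 9.23 and 10.6 CPM at 5 mg (0.90 ± 0.32). All 5 mg values of both genes lay above the vehicle values. Epn2, an endocytic adaptor, stood at 1.11 and 2.95 CPM in vehicle and 8.22 and 7.11 CPM at 5 mg (1.92 ± 0.40), with 6.59 and 7.06 CPM at 50 mg. Vehicle number 1 was the lowest of these libraries, and the fold change without it is 1.38. P4ha1, a collagen prolyl hydroxylase, stood at 4.87 and 5.40 CPM in vehicle and 10.9 and 7.52 CPM at 5 mg (0.84 ± 0.29). Ifngr1, the ligand-binding chain of the interferon gamma receptor, stood at 2.33 and 1.48 CPM in vehicle and 3.52 and 4.36 CPM at 5 mg (1.04 ± 0.36). Clec3b, tetranectin, stood at 4.42 and 5.55 CPM in vehicle and 10.3 and 8.82 CPM at 5 mg (0.94 ± 0.36). The gap between the groups was narrow for P4ha1 and Ifngr1 and wider for Epn2. Syngr2 had a log2 fold change of 1.24 ± 0.37, which becomes 0.61 with overlapping genes summed. Rnaset2b, Dennd1a, Mrps17 and Cdv3 had 1.99 ± 0.72, 1.47 ± 0.52, 0.96 ± 0.33 and 0.92 ± 0.34. The value of Dennd1a is 0.68 without number 3, and that of P4ha1 0.53. Rnaset2b is at 1.14 without vehicle number 1, at 4.19 without vehicle number 2 and at 1.30 when summed with the gene it overlaps. Creld2, Rpl35a and Baiap2l1 are given further on.

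**Figure D2:**
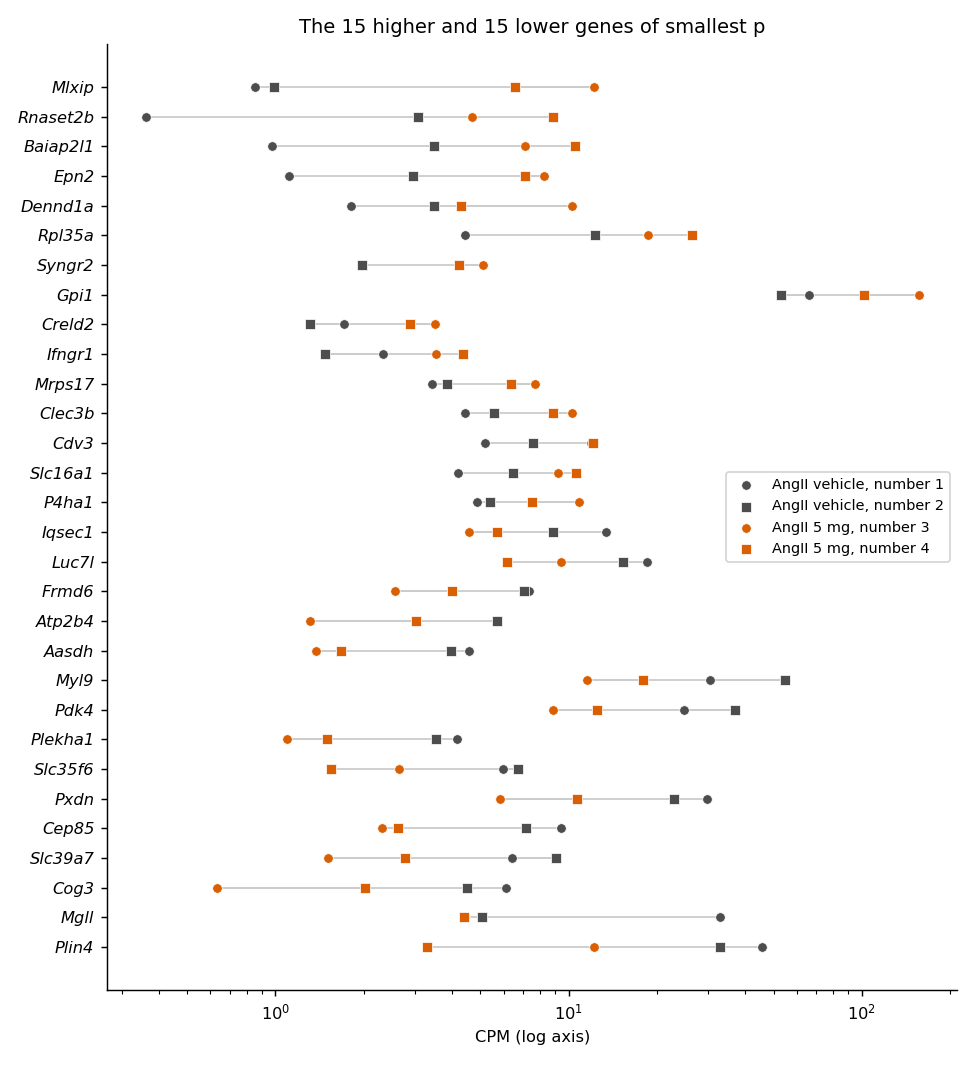
CPM on a log axis of the 15 higher and 15 lower genes of smallest p (vertical axis, ordered by fold change) in AngII vehicle numbers 1 and 2 and AngII 5 mg numbers 3 and 4, 1 point per library joined by a line. Mlxip at the top spans 0.849 to 12.2 CPM, and Plin4 at the bottom 3.29 to 45.5 CPM.

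How many genes are called depends on the test. The DESeq2 Wald test on the same genes called 12, namely Mlxip and Epn2 higher and Cep85, Slc39a7, Pxdn, Slc35f6 and Plin4 lower, with Kctd12, Scamp4, Dnah8, Fen1 and D17H6S53E outside the rule for named genes. Kctd12, named here after its values were seen, stood at 4.31 and 5.44 CPM in vehicle and at 0 counts in both 5 mg libraries. It was also at 0 in both 50 mg libraries and in 4 of the 6 sham libraries, and its exons overlap a gene on the opposite strand. Without 5 mg number 4, edgeR called 8 genes, Mlxip higher and 7 lower. Klhl26, Cttnbp2nl and Sept2 are 3 of those 7, and they were lower in number 3 than in number 4. Sept2, for example, stood at 10.5 and 7.98 CPM in vehicle and at 0.410 and 17.9 CPM at 5 mg. Without 5 mg number 3, edgeR called 2 genes, Gm27505 and Mlxip.

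Genes of hypertrophy and fibrosis showed no called difference. Nppa, the atrial natriuretic peptide, stood at 189.7 and 204 CPM in vehicle and 96.6 and 125 CPM at 5 mg (-0.83 ± 0.41), with both 5 mg libraries below both vehicle libraries and 50 mg at 186 and 221 CPM. Nppb, the B-type peptide, stood at 36.3 and 52.8 CPM in vehicle and 31.1 and 30.5 CPM at 5 mg (-0.53 ± 0.33). Acta1, skeletal alpha-actin, stood at 224 and 288 CPM in vehicle and 148 and 186 CPM at 5 mg (-0.62 ± 0.42). All 3 were lower in both 5 mg libraries, and none reached an unadjusted p below 0.05. In sham vehicle Nppa stood at 324 and 699 CPM, Nppb at 52.6 and 102 CPM and Acta1 at 923 and 741 CPM. Their sham vehicle means lay above their AngII vehicle means, so the lower 5 mg levels lay further from sham vehicle. Myh7, the slow myosin heavy chain, stood at 170.3 and 94.9 CPM in vehicle and 211 and 120.4 CPM at 5 mg (0.32 ± 0.41), and Myh6, its fast adult counterpart, at 3404 and 2034 CPM in vehicle and 3912 and 1559 CPM at 5 mg (0.01 ± 0.47). Both myosin genes were highest in number 3, and without it their fold changes are -0.16 for Myh7 and -0.82 for Myh6. The fold change of Myh6 was negative, at -0.14 with limma-voom and closer to 0 with DESeq2 size factors, with DESeq2 and on TPM. Of 27 tested fetal and hypertrophy genes (28 listed), 0 were called. Groups did not overlap for 3 as higher (11.1%) and 5 as lower (18.5%), beside 11.5% of all genes in each direction. The median log2 fold change was -0.08. That median is -0.13 without number 3 and 0.091 without number 4. Csrp3, a mechanosensor of the Z disc in that list, stood at 79.8 and 86.8 CPM in vehicle and 119 and 142 CPM at 5 mg (0.65 ± 0.34).

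Matrix genes likewise gave no call. Col1a1, a chain of collagen I, stood at 7.18 and 13.8 CPM in vehicle and 11 and 8.44 CPM at 5 mg (-0.11 ± 0.45). Col3a1, collagen III, stood at 24.2 and 31.1 CPM in vehicle and 21.5 and 22.7 CPM at 5 mg (-0.32 ± 0.40), and Postn, periostin of activated fibroblasts, at 0.976 and 1.19 CPM in vehicle and 0.853 and 1.01 CPM at 5 mg (-0.22 ± 0.48). Of 49 tested matrix and fibrosis genes (50 listed), 0 were called. Groups did not overlap for 4 as higher (8.16%) and 6 as lower (12.2%), beside 11.5% of all genes in each direction. The median was -0.071, -0.33 without number 3 and 0.014 without number 4. Col1a1 moved between -0.33 and 0.068 in the same fits. Col5a3, a minor fibrillar collagen, was among the 3 of smallest p in that list and stood at 21.6 and 13.1 CPM in vehicle and 10.1 and 5.94 CPM at 5 mg (-1.11 ± 0.42). Fibroblast markers had a median of 0.17 over 15 genes, 0.42 without number 3 and 0.03 without number 4. Of 23 basement membrane genes tested (25 listed), 0 were called and the median was -0.15. It turned from -0.57 without number 3 to 0.26 without number 4. Pxdn led that list, followed by Nid1, nidogen, at 6.07 and 8.74 CPM in vehicle and 10.2 and 10.7 CPM at 5 mg (0.49 ± 0.31).

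Calcium handling and ion channel genes, which set contraction and rhythm, had 0 of 41 called, with 20 higher, 21 lower and a median of -0.03, which is -0.10 without number 3 and 0.07 without number 4.

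Agtr1a, the AT1 receptor through which angiotensin II acts, stood at 2.48 and 1.67 CPM in vehicle and 1.01 and 1.28 CPM at 5 mg (-0.86 ± 0.49). Among 11 tested renin-angiotensin genes (14 listed), 0 were called, and 3 did not overlap as higher (27.3%) and 1 as lower (9.09%), beside 11.5% of all genes in each direction. Their median was 0.10, -0.27 without number 3 and 0.22 without number 4. Lnpep, an angiotensin-binding aminopeptidase, stood at 3.66 and 4.71 CPM in vehicle and 5.44 and 5.62 CPM at 5 mg (0.40 ± 0.27). In the insulin-like growth factor axis, 0 of 26 tested genes (28 listed) were called. The median was 0.14, 0.37 without number 3 and -0.03 without number 4. The growth factor Igf2 stood at 3.23 and 4.50 CPM in vehicle and 3.93 and 8.15 CPM at 5 mg (0.64 ± 0.68), with number 4 highest, and at 0.530 and 0.0318 CPM at 50 mg. The 50 mg libraries are those in which Gm49394, which overlaps Igf2 on the same strand, held 2.38 and 2.30 CPM, against 0 in vehicle and at 5 mg, and the part of that overlap in the 50 mg level of Igf2 was not tested. The fold change of Igf2 from vehicle to 5 mg is 0.025 without number 4. Igf2r, its clearance receptor, stood at 12 and 7.86 CPM in vehicle and 11 and 5.53 CPM at 5 mg (-0.26 ± 0.40), with -0.86 without number 3 and 0.15 without number 4. The binding proteins Igfbp6 and Igfbp3 lay higher in both 5 mg libraries, at 4.37 and 3.76 CPM against 2.19 and 2.61 for Igfbp6 (0.76 ± 0.40) and at 5.83 and 4.64 CPM against 3.80 and 3.26 for Igfbp3 (0.57 ± 0.41).

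In fatty acid uptake and oxidation, 0 of 38 tested genes (39 listed) were called, with 23 higher and 15 lower and a median of 0.08, which is 0.14 without number 3 and -0.11 without number 4. Only Pdk4 and Ucp3 had an unadjusted p below 0.05 there, both lower. Ucp3, the muscle uncoupling protein, stood at 6.32 and 10.4 CPM in vehicle and 1.98 and 3.22 CPM at 5 mg (-1.69 ± 0.54), and at 2.83 and 4.0 CPM at 50 mg. Mlycd, malonyl-CoA decarboxylase, which relieves the brake on fatty acid import, stood at 15.6 and 13.8 CPM in vehicle and 11.3 and 10.3 CPM at 5 mg (-0.44 ± 0.25). In glycolysis, 0 of 24 tested genes (25 listed) were called and the median was 0.07, 0.14 without number 3 and -0.034 without number 4, with 3 not overlapping in each direction (12.5%, beside 11.5% of all genes). Besides Gpi1 and Slc16a1, Pfkm, muscle phosphofructokinase, stood at 98.4 and 67.5 CPM in vehicle and 50.3 and 62.1 CPM at 5 mg (-0.56 ± 0.29), lower in both 5 mg libraries. Pfkm overlaps other genes on both strands. Nuclear-encoded oxidative phosphorylation genes were more often higher than lower. Of 79 tested, 66 were higher, 17 did not overlap as higher (21.5%, beside 11.5% of all genes) and 1 as lower, with a median of 0.16 that is 0.02 without number 3 and 0.25 without number 4. Examples are Cox6a1 at 13.7 and 17.5 CPM in vehicle and 23.8 and 21.3 CPM at 5 mg (0.54 ± 0.28) and Ndufa11 at 19.7 and 18.2 CPM in vehicle and 31.4 and 23.0 CPM at 5 mg (0.52 ± 0.29), the latter at 0.26 without number 3.

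Zinc transport genes had no shared direction. Of 24 tested (28 listed), 0 were called, 11 were higher and 13 lower. The median was -0.03, -0.32 without number 3 and 0.22 without number 4. Beside Slc39a7, the Golgi importer Slc30a7 stood at 1.21 and 1.0 CPM in vehicle and 0.323 and 0.0900 CPM at 5 mg (-2.36 ± 0.88), with -3.61 without number 3. Slc30a1, the exporter at the cell surface, stood at 0.459 and 0.658 CPM in vehicle and 1.07 and 1.66 CPM at 5 mg (1.28 ± 0.47). These levels are close to 1 CPM, where few reads are behind each value.

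Genes of the unfolded protein response were more often higher than lower at 5 mg, and none was called. The unfolded protein response restores folding in that compartment through the sensors encoded by Atf6, Ern1 and Eif2ak3, which switch on chaperones and disulfide isomerases. Of 33 tested genes (34 listed), 0 were called, 26 were higher and 7 lower, and the median was 0.26. Without 5 mg number 3 the median was 0.25 and without number 4 0.25. Groups did not overlap for 10 higher genes (30.3%) and 1 lower gene (3.03%), beside 11.5% of all genes in each direction. Creld2, a folding factor of the endoplasmic reticulum, stood at 1.71 and 1.32 CPM in vehicle and 3.51 and 2.88 CPM at 5 mg (1.08 ± 0.38). Pdia4, a disulfide isomerase, stood at 1.62 and 2.1 CPM in vehicle and 3.04 and 3.91 CPM at 5 mg (0.90 ± 0.40). Hspa5, the master chaperone BiP, stood at 13.6 and 18.2 CPM in vehicle and 17.0 and 46.5 CPM at 5 mg (0.99 ± 0.44). The value of Hspa5 rests on number 4, as it is 0.09 without that library. The summed level of the list was 190.2 and 182 CPM in vehicle and 221 and 241 CPM at 5 mg, and the list's median difference between 50 mg and vehicle was 0.18.

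Some promoters of these genes hold a known element. The ER stress response element, searched on both strands as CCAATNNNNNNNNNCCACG in the same RefSeq windows, was found in 9 of the 29 listed genes with a window (31%), against 0.137% of all 27025 genes. The genes are Calr, Canx, Creld2, Derl3, Dnajc3, Hsp90b1, Hspa5, Pdia6 and Syvn1, several of them named for this match and not by the rule. Stretches of 5 of them are shown, 5′ to 3′ on the strand of the gene, with the fixed letters in capitals. These are Hspa5 and the genes whose groups did not overlap, all higher at 5 mg. Canx, Derl3, Pdia6 and Syvn1 also hold the element and are not shown, so the display does not tie the element to the level. In Creld2 and Calr the element lies on the opposite strand and reads CGTGG, then ATTGG.

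Creld2, chr15:88819515-88819543, plus strand: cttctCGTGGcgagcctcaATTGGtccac
Hspa5, chr2:34772020-34772048, plus strand: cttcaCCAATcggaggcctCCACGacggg
Dnajc3, chr14:118937822-118937850, plus strand: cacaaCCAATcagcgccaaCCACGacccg
Hsp90b1, chr10:86705633-86705661, minus strand: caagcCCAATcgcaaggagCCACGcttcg
Calr, chr8:84847070-84847098, minus strand: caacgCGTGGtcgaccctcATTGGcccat

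Among the genes with these letters, 4 did not overlap between the groups, all higher. Of the whole list, 30.3% did not overlap as higher, beside 11.5% of all genes. The genes with these letters were not tested as a set. Dnajc3, a co-chaperone that also restrains the kinase encoded by Eif2ak3, stood at 2.29 and 2.85 CPM in vehicle and 3.42 and 3.35 CPM at 5 mg (0.40 ± 0.32). Hsp90b1, the chaperone GRP94, stood at 24.8 and 21.6 CPM in vehicle and 27.2 and 28.2 CPM at 5 mg (0.26 ± 0.26), and Calr, calreticulin, at 25.2 and 24.3 CPM in vehicle and 25.9 and 34.3 CPM at 5 mg (0.28 ± 0.28). Creld2 is the fourth of these and had the widest gap. Hspa5, Canx, Pdia6 and Syvn1 overlapped, with log2 fold changes of 0.99, 0.28, 0.09 and 0.06. Derl3 was too low to test. The match describes the sequence only, since the list was chosen for genes of this response.

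Cytosolic heat shock chaperones also lay higher more often than lower. Of 30 tested, 0 were called, 24 were higher and 6 lower, 7 did not overlap as higher (23.3%, beside 11.5% of all genes) and 0 as lower. The median of 0.21 was 0.10 without number 3 and 0.091 without vehicle number 1. Hsp90aa1, the inducible cytosolic HSP90, stood at 5.26 and 10.6 CPM in vehicle and 15.7 and 13.3 CPM at 5 mg (0.87 ± 0.33), and without vehicle number 1 its fold change is 0.45. Hspe1, the mitochondrial chaperonin cofactor, stood at 10.4 and 11.3 CPM in vehicle and 13.7 and 19.9 CPM at 5 mg (0.63 ± 0.27, and 0.33 without number 4), both 5 mg libraries above vehicle. Hspa1b, the inducible HSP70, stood at 0.615 and 0.443 CPM in vehicle and 2.91 and 0.576 CPM at 5 mg (1.73 ± 0.69). Number 3 alone was high for Hspa1b, and its fold change without that library is 0.10. Hspa1b and Hspa1a are near-identical copies, so reads could be split between them.

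**Figure D3:**
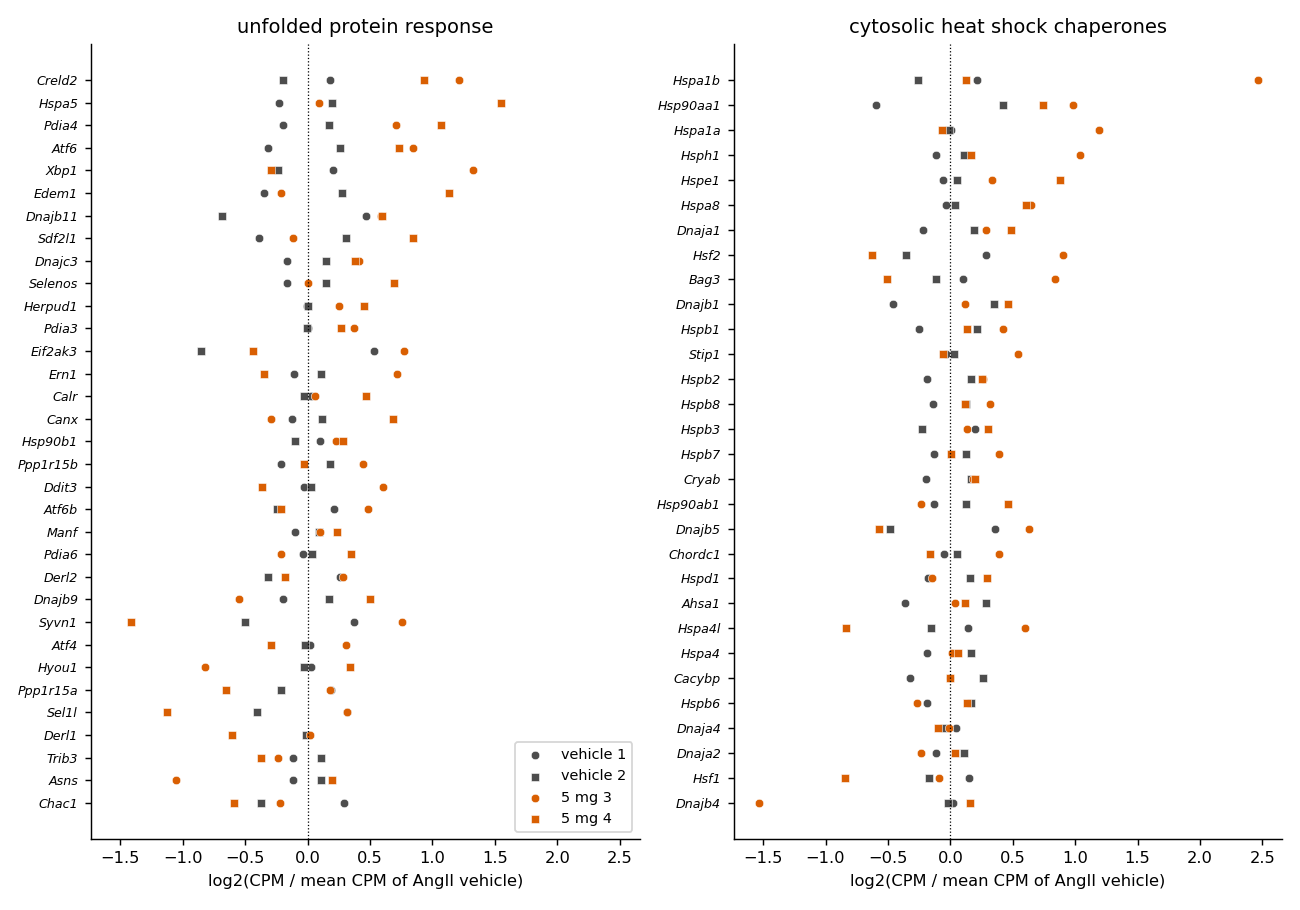
Log2 ratio of CPM to the mean CPM of AngII vehicle (horizontal axes) for the tested genes of the unfolded protein response (33, left) and the cytosolic heat shock list (30, right) in the 4 libraries, 1 point per library. Both 5 mg points of Creld2, Pdia4 and Hsp90aa1 lie to the right of both vehicle points, whereas those of Hspa5 and Hspa1b lie far apart.

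Across the 26 gene lists described, 13 medians kept their sign when either 5 mg library was left out. These fits share most of their libraries, and a kept sign can hide a small median. The median of ribosomal proteins was 0.001 without number 4, and that of nuclear-encoded oxidative phosphorylation 0.021 without number 3. Smooth muscle, atrial, mesothelial and lung lists lay lower with and without each library. Macrophage, liver and ribosomal protein lists lay higher, but mostly through number 4. No member of any of these lists was called apart from Mlxip. The RNA was from heart tissue, where fewer cells of a type and less RNA per cell cannot be told apart.

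**Figure D4:**
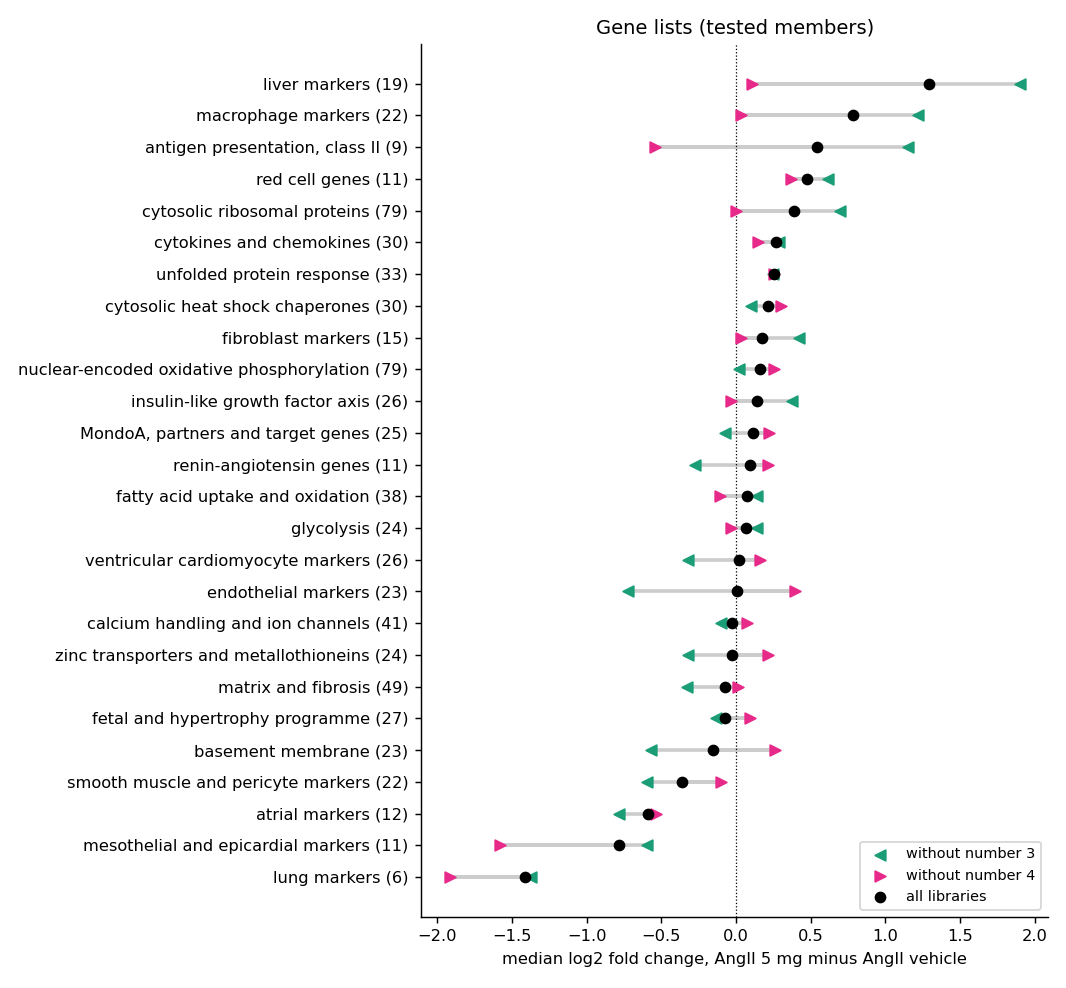
Median log2 fold change of the tested members of each gene list, AngII 5 mg minus AngII vehicle (horizontal axis, number of tested members in brackets), with all libraries and without 5 mg number 3 or number 4. The macrophage median moves from 0.78 to 0.03 without number 4, while that of the unfolded protein response stays at 0.25 without number 3 and 0.25 without number 4.

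Contractile genes of smooth muscle lay lower at 5 mg, and none was called. Of 22 tested smooth muscle and pericyte markers, 0 were called, 16 were lower, 8 did not overlap as lower (36.4%, beside 11.5% of all genes) and 0 as higher, and the median was -0.36. The median is -0.59 without number 3, -0.10 without number 4 and -0.13 on log2 of TPM plus 1. Myl9, the regulatory light chain of smooth muscle myosin, stood at 30.4 and 54.8 CPM in vehicle and 11.6 and 18.0 CPM at 5 mg (-1.53 ± 0.48). Tagln, the actin-binding protein SM22, stood at 31.6 and 65.2 CPM in vehicle and 8.68 and 22.1 CPM at 5 mg (-1.66 ± 0.68), and Acta2, smooth muscle actin, at 58.5 and 149 CPM in vehicle and 36.2 and 54.0 CPM at 5 mg (-1.20 ± 0.50). Vehicle number 2 was the highest of the 4 libraries for all 3 genes, and the fold change of Acta2 without it is -0.40. At 50 mg the libraries were split, with Acta2 at 43.1 and 84.0 CPM and Tagln at 12.3 and 57.9 CPM. Endothelial markers had a median of 0.01 over 23 genes, which was -0.73 without number 3 and 0.39 without number 4. Vwf, von Willebrand factor, stood at 13.0 and 7.73 CPM in vehicle and 9.76 and 4.95 CPM at 5 mg, and Emcn, endomucin of capillaries, at 4.84 and 3.37 CPM in vehicle and 7.18 and 4.91 CPM at 5 mg. Without number 3 their fold changes are -1.09 and 0.24, against -0.49 and 0.56 with all libraries.

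Genes of the atria, of the surface layer of the heart and of the airway lay lower as well, again with no call. Of 12 tested atrial markers (14 listed), 0 were called and 7 did not overlap as lower (58.3%, beside 11.5% of all genes), with 1 as higher (8.33%), and the median was -0.59. That median is -0.14 with genes of at least 1 CPM in 2 of the 4 libraries and -0.097 on log2 of TPM plus 1. Myl7, the atrial myosin light chain, stood at 1.33 and 0.607 CPM in vehicle and 0.0538 and 0.144 CPM at 5 mg (-3.31 ± 1.39), and Myl4 at 2.48 and 1.0 CPM in vehicle and 0.800 and 0.234 CPM at 5 mg (-1.72 ± 0.81, between -2.91 and -0.92 with 1 of the 4 libraries left out). Sln, sarcolipin of the atria, stood at 0.254 and 0.164 CPM in vehicle and at 0 in both 5 mg libraries. The summed atrial level, most of it Nppa, was 224 and 238 CPM in vehicle and 127 and 159.9 CPM at 5 mg. Of 11 tested mesothelial and epicardial markers (14 listed), 0 were called, and 4 did not overlap as lower (36.4%, beside 11.5% of all genes) and 0 as higher, with a median of -0.79. It is -1.58 without number 4, -1.42 with limma-voom and -0.031 on log2 of TPM plus 1. On that last scale the added 1 pulls fold changes of genes of low TPM toward 0, also among the atrial markers. Msln, for example, had a TPM of 0.295 and 0.507 in vehicle and 0.246 and 0.0248 at 5 mg. Msln, mesothelin, stood at 0.468 and 1.11 CPM in vehicle and 0.262 and 0.0720 CPM at 5 mg, and Upk3b at 0.898 and 0.633 CPM in vehicle and 0.255 and 0.216 CPM at 5 mg, with the fold change of Msln at -2.20, and at -3.44 without number 3. The lung markers, of which 6 of 12 listed were tested, had 0 called, 5 not overlapping as lower (83.3%, beside 11.5% of all genes) and a median of -1.41. Scgb1a1, the secretoglobin of airway club cells, stood at 8.81 and 7.01 CPM in vehicle and 1.10 and 2.66 CPM at 5 mg (-2.08 ± 0.66), and Scgb3a1 at 2.55 and 2.02 CPM in vehicle and 0.645 and 1.04 CPM at 5 mg. Surfactant genes were at or near 0, with 0 counts of Sftpc in all 4 libraries. The summed lung level was 12.9 and 10.5 CPM in vehicle and 2.38 and 4.54 CPM at 5 mg, and that of mesothelial markers 7.43 and 7.39 CPM in vehicle and 5.50 and 5.98 CPM at 5 mg. For lung markers the vehicle libraries of the AngII arm stood apart, since the other 10 libraries of the series, both doses and the sham arm included, summed to 0.0559 to 4.54 CPM. Against the same vehicle libraries, 50 mg had medians of -1.83 for lung and -1.50 for mesothelial markers. Medians of the atrial, mesothelial, lung and smooth muscle lists were lower at 5 mg, but levels at 50 mg differed between the lists. At 50 mg the atrial markers summed to 215 and 255 CPM, near vehicle. Smooth muscle and pericyte markers summed to 553 and 755 CPM at 50 mg, against 655 and 774 CPM in vehicle. Lung markers summed to 3.91 and 2.48 CPM at 50 mg, and mesothelial markers to 4.38 and 5.00 CPM, below vehicle. The part of these lists in the other results was not tested.

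Macrophage markers were higher mainly in number 4. Of 22 tested, 0 were called, 20 were higher, 5 did not overlap as higher (22.7%, beside 11.5% of all genes) and 0 as lower. The median of 0.78 was 1.22 without number 3 and 0.03 without number 4. C1qa, a subunit of complement C1q made by resident macrophages, stood at 4.77 and 11.3 CPM in vehicle and 10.7 and 23.5 CPM at 5 mg (1.09 ± 0.47), and C1qc at 3.35 and 6.30 CPM in vehicle and 4.89 and 15.8 CPM at 5 mg (1.10 ± 0.48). In both genes number 3 lay within the range of vehicle, and without number 4 their fold changes are 0.41 and 0.02. The summed level was 36.3 and 67.3 CPM in vehicle and 53.0 and 130.4 CPM at 5 mg. Class II antigen presentation genes turned with that library, from a median of 0.55 over 9 genes to -0.54 without it and 1.15 without number 3. H2-Eb1 stood at 1.72 and 2.02 CPM in vehicle and 1.30 and 6.23 CPM at 5 mg (0.99, and -0.53 without number 4). Cytokine and chemokine genes had a median of 0.27 over 30 tested of 41 listed, with 0 called, 7 not overlapping as higher (23.3%) and 3 as lower (10%), beside 11.5% of all genes in each direction. The median is 0.14 without number 4. Ccl9, a macrophage chemokine, stood at 0.468 and 0.152 CPM in vehicle and 0.316 and 2.43 CPM at 5 mg (2.1 ± 0.87), again high in number 4 only, with 0.01 without it.

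Liver, red cell and ribosomal protein genes were also highest in number 4. All 19 liver markers had higher fitted values, 0 were called, and 1 did not overlap (5.26%, beside 11.5% of all genes). Apoa1, an apolipoprotein made in liver, stood at 0.0781 and 3.18 CPM in vehicle and 1.42 and 11.3 CPM at 5 mg, and Hpx, hemopexin, at 0.263 and 0.658 CPM in vehicle and 0.860 and 2.09 CPM at 5 mg. Without number 4 their fold changes are -0.18 and 0.90, against 1.97 and 1.67 with all libraries. The summed liver level was 3.97 and 53.8 CPM in vehicle and 30.3 and 111 CPM at 5 mg, so vehicle number 1 was lowest and number 4 highest, and the median of 1.29 became 0.11 without number 4 and 6.96 without vehicle number 2. Hba-a1, an alpha globin gene, stood at 401 and 566 CPM in vehicle and 652 and 795 CPM at 5 mg (0.58 ± 0.48). Of 11 tested red cell genes (13 listed), 0 were called, 5 did not overlap as higher (45.5%, beside 11.5% of all genes), the median was 0.47 and 0.22 without vehicle number 1, and the summed level was 1043 and 1601 CPM in vehicle and 1565 and 2130 CPM at 5 mg. Cytosolic ribosomal protein genes were higher in 77 of 79, with 23 not overlapping as higher (29.1%, beside 11.5% of all genes), 0 called and a median of 0.39, which was 0.70 without number 3 and 0.00 without number 4. Rpl35a stood at 4.42 and 12.3 CPM in vehicle and 18.6 and 26.3 CPM at 5 mg (1.43 ± 0.54, and 0.87 without vehicle number 1), and Rpl11 at 37.3 and 58.4 CPM in vehicle and 66.4 and 84.8 CPM at 5 mg (0.66 ± 0.30). Ribosomal protein and globin genes have near-identical copies, which makes single values uncertain. The part of liver and blood RNA in the other results was not tested.

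**Figure D5:**
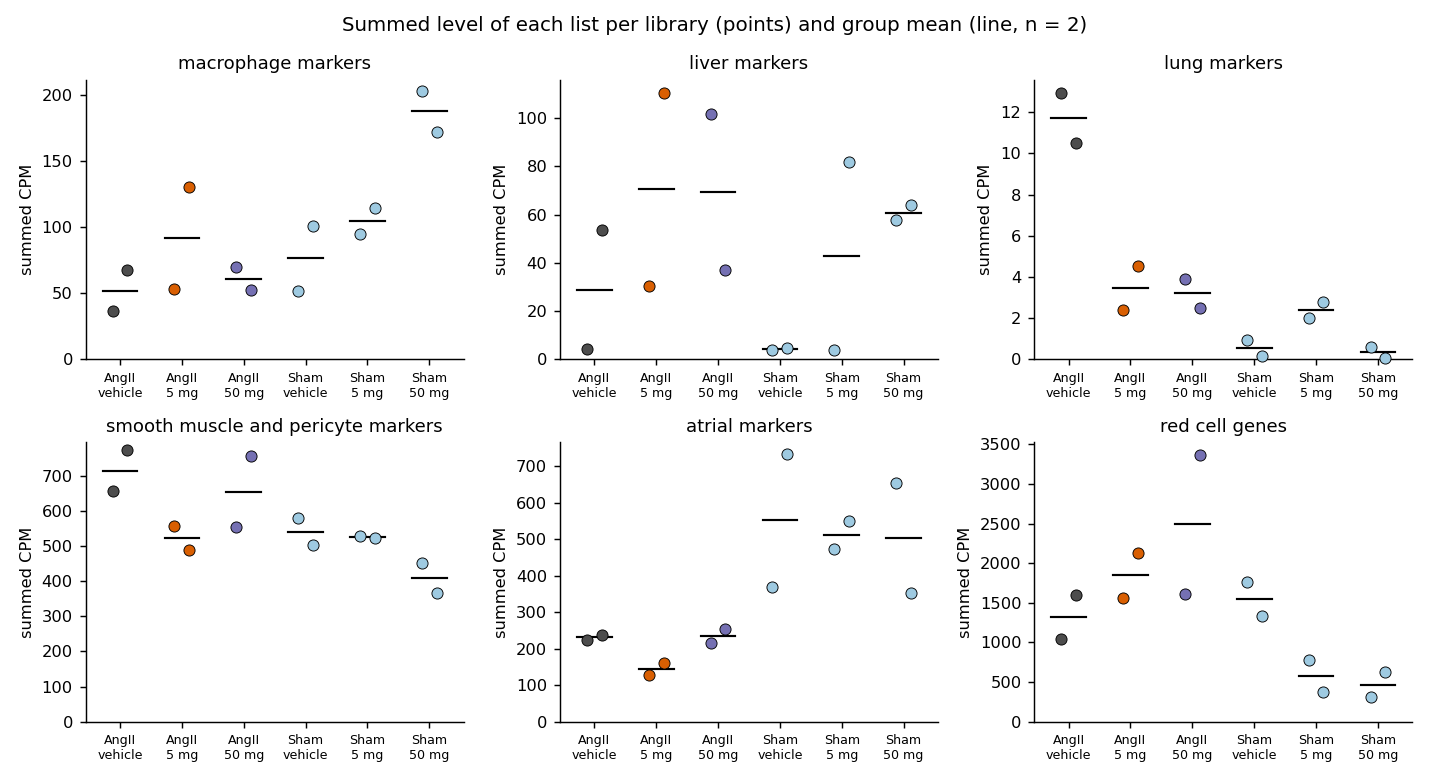
Summed CPM (vertical axes, each from 0) of the macrophage, liver, lung, smooth muscle, atrial and red cell lists in the 12 libraries by group, with points for libraries and lines for means of 2. In the AngII 5 mg group, macrophage markers sum to 53.0 and 130.4 CPM and lung markers to 2.38 and 4.54 CPM, against 12.9 and 10.5 CPM in AngII vehicle.

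Whether the effect of 5 mg differed between AngII and sham hearts was tested as an interaction, which called 1 gene of 16723 (0.00598%). Baiap2l1, an actin regulator at the cell membrane, stood at 0.976 and 3.47 CPM in vehicle and 7.08 and 10.5 CPM at 5 mg in the AngII arm. In sham hearts it stood at 27.8 and 14.1 CPM in vehicle and at 1.11 and 0.508 CPM at 5 mg. The 5 mg libraries lay above vehicle in the AngII arm and below it in the sham arm. Log2 fold changes were 1.99 ± 0.56 in AngII and -4.71 ± 0.64 in sham hearts (edgeR adjusted p = 0.0360 for sham), and their difference was 6.69 ± 0.85 with an edgeR adjusted p of 0.0473. The call ended with limma-voom, with at least 1 CPM in 2 of the 4 libraries, and without any 1 of 10 of the 12 libraries, and it held without AngII vehicle number 2 and without AngII 5 mg number 4. The gene Baiap2l1 (GRCm38, chromosome 5, 144264526 to 144358112) shares exon bases on the opposite strand with Bri3, which held 795 to 1486 counts in the 4 libraries, so with the strand setting unknown its reads may be shared. For Mlxip the difference between arms was 3.28 ± 0.51, with an edgeR adjusted p of 0.180.

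The dose of 50 mg against 5 mg in AngII hearts differed in 3 genes (0.0179% of those tested). Mlxip was lower at 50 than at 5 mg, with a log2 fold change of -3.39 ± 0.38 (edgeR adjusted p = 0.00635), and at 50 mg it was near the vehicle level. Klhdc10, a Kelch-repeat adaptor of a ubiquitin ligase, stood at 5.45 and 5.52 CPM in vehicle and 7.47 and 5.29 CPM at 5 mg and at 0.973 and 0.913 CPM at 50 mg, a log2 fold change of -2.76 ± 0.31 from 5 to 50 mg (edgeR adjusted p = 0.00635). The low level was thus in the 50 mg libraries, and 5 mg was near vehicle. Gm49394 had 0 counts in all vehicle and 5 mg libraries of the AngII arm and 2.38 and 2.30 CPM at 50 mg. It overlaps Igf2 on the same strand, and its call ended with overlapping genes summed. All 3 calls ended with a fit of the AngII arm alone and without 50 mg number 6, and the count was 16 without 5 mg number 4 and 10 without 50 mg number 5. The comparisons of 5 and 50 mg with vehicle share the same vehicle libraries, so their fold changes are given side by side only. They were 3.36 and -0.03 for Mlxip, 1.92 and 1.75 for Epn2, 1.11 and 1.21 for Gpi1, and -1.53 and -1.51 for Pdk4. For Cep85 they were -1.75 and 0.17, and for Plin4 -2.33 and 0.24.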

How the data were processed

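RNA of mouse hearts was sequenced in 12 libraries, 2 in each of 6 groups, and 4 of them are compared here. The submitters' processing notes name HISAT2 2.2.1, StringTie 2.1.3 and GRCm38.p6. The roles of these tools, the counting program, the annotation release and the strand setting have to be taken as not given in the sources used here. One deposited table holds raw counts of 27504 genes, with no scaling by the authors. Each library also has a deposited TPM file of 14271 genes, per the file headers.

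GENCODE M21 named 27489 genes and gave their positions and overlaps. Where several identifiers share a symbol, the one with most counts kept it. Tests on counts used edgeR 4.0.16 in R 4.3.3. The 16723 genes that passed filterByExpr were scaled by TMM, and a model of 6 group means was fitted to the 12 libraries. It had 6 residual and 6.93 prior degrees of freedom and a biological coefficient of variation of 0.476. Two-sided quasi-likelihood F-tests were adjusted by the Benjamini-Hochberg method, with 0.05 as the threshold. The SE of a log2 fold change was obtained from its F statistic. Genes other than mitochondrial, mitochondria-like and ribosomal RNA genes held 7.491 to 20.29% of counts in the 4 libraries, which sets the precision. Alternatives used DESeq2 1.42.0 and limma 3.58.1. The pipeline was tested on simulated data. Promoter sequences came from RefSeq (GRCm38.p6).

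The members, the 46 gene lists (26 of them described) and the tests were chosen with earlier results of these data known. The text names genes called in a contrast (at most 10 each), 14 fixed genes, the 3 of smallest p in each described list, and 15 higher and 15 lower of smallest p. The last had to have a symbol other than a predicted gene, clone or pseudogene, a mean log2 CPM of 1 or more and groups that did not overlap. Some of these are not printed, and genes outside the rule are marked.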

Additional observations from a re-analysis of the deposited data

Results flagged for a closer look

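The effect of 5 mg gastrodin on Baiap2l1 differed between the arms, with a difference of log2 fold changes of 6.69 (AngII minus sham) by the interaction test in edgeR. It was the 1 gene past the threshold in that test, at an edgeR adjusted p of 0.0473. The call ended with limma-voom and with at least 1 CPM in 2 of the 4 libraries. Baiap2l1 shares exon bases with Bri3 on the opposite strand, and with the strand setting unknown its reads may be shared.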

How the results depend on the processing

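The count of genes called for 5 mg against vehicle in AngII hearts was 1 in edgeR, and also 1 with DESeq2 size factors, limma-voom, at least 1 CPM in 2 of the 4 libraries, mitochondrial and haemoglobin genes left out, or overlapping genes summed (chosen after seeing the data). It was 12 with the DESeq2 Wald test, 60 with no filter, and 0 with only the 4 libraries, only the AngII arm, or log2 of TPM plus 1. The interaction count of 1 became 14 with DESeq2, 93 with no filter, 2 on TPM, and 0 with limma-voom or at least 1 CPM in 2 of the 4 libraries. The count of 3 for 50 against 5 mg became 20 with DESeq2, 67 with no filter, and 0 with only the AngII arm or on TPM. With 1 library left out in turn these counts ranged from 0 to 8, 0 to 8 and 0 to 16, and without AngII vehicle number 2 the 1 gene called was Heyl. The cause was not tested. Mlxip was higher under every setting run, and of 111 named genes 6 became called with DESeq2 and 17 with no filter. Myh6 reversed to -0.006 with DESeq2 size factors, the DESeq2 test and mitochondrial genes left out, -0.14 with limma-voom and -0.004 on TPM, and Col1a1 to 0.086 on TPM. List medians moved with limma-voom (mesothelial -1.42, lung -1.86, glycolysis -0.02), with at least 1 CPM (atrial -0.14) and on TPM (fetal programme 0.023, smooth muscle -0.13, mesothelial -0.031, atrial -0.097, unfolded protein response 0.19, cytokines 0.19). With 1 library left out in turn, medians ranged as follows: fetal and hypertrophy programme -0.13 to 0.091, glycolysis -0.034 to 0.14, cytokines and chemokines 0.14 to 0.45, mesothelial and epicardial markers -1.58 to -0.59, liver markers 0.11 to 6.96, insulin-like growth factor axis -0.033 to 0.37, basement membrane -0.57 to 0.26, matrix and fibrosis -0.33 to 0.014, smooth muscle and pericyte markers -0.59 to -0.10, endothelial markers -0.73 to 0.39, atrial markers -0.79 to -0.52, ventricular cardiomyocyte markers -0.33 to 0.16, nuclear-encoded oxidative phosphorylation 0.021 to 0.26, renin-angiotensin genes -0.27 to 0.22, lung markers -1.92 to -1.23, macrophage markers 0.032 to 1.30, antigen presentation, class II -0.54 to 1.15 and fatty acid uptake and oxidation -0.11 to 0.20. Genes whose sign turned in such a fit ranged as follows: Igf2r -0.86 to 0.15, Arrdc4 -0.36 to 0.88, Mlxipl -1.84 to 0.63, Cma1 -6.14 to 0.00, Myh7 -0.16 to 0.81, Col1a1 -0.50 to 0.41, Myh6 -0.82 to 0.53, Klhdc10 -0.073 to 0.45, H2-Eb1 -0.53 to 1.72, H19 -0.13 to 1.57, Apoa1 -0.18 to 6.28, Cd74 -0.54 to 1.24, Dpep1 -0.070 to 0.75 and Txnip -0.44 to 0.57. No paired analysis was possible because the groups share no replicate numbers in the labels. Depth limits genes near 1 CPM, most of all in AngII 5 mg number 4. On log2 of TPM plus 1, the added 1 pulls fold changes of genes of low TPM toward 0. With 2 libraries a group, leaving one out assumes that the lone library varies like the other groups.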

Other observations

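Some further lists, chosen for mention after their values were seen, are given as counts for 5 mg against vehicle in AngII hearts, and none of their genes was called. Over all genes, 11.5% did not overlap as higher and 11.5% as lower, and the shares below are read beside that. Antioxidant and NRF2 target genes had 27 higher and 6 lower of 34 tested, 7 not overlapping as higher (20.6%) and 1 as lower (2.94%), and a median log2 fold change of 0.11. Apoptosis genes had 11 higher and 11 lower of 22 tested, 7 not overlapping as higher (31.8%) and 3 as lower (13.6%), and a median log2 fold change of 0.05. Interferon-stimulated genes had 21 higher and 13 lower of 34 tested, 7 not overlapping as higher (20.6%) and 2 as lower (5.88%), and a median log2 fold change of 0.10. Immediate-early genes had 18 higher and 12 lower of 30 tested, 1 not overlapping as higher (3.33%) and 5 as lower (16.7%), and a median log2 fold change of 0.10, beside a median of -0.80 at 50 mg against the same vehicle libraries. Schwann cell and nerve markers had 3 higher and 6 lower of 10 tested, 0 not overlapping as higher (0%) and 3 as lower (30%), and a median log2 fold change of -0.38. Circadian clock genes had 9 higher and 10 lower of 20 tested, 3 not overlapping as higher (15%) and 4 as lower (20%), and a median log2 fold change of -0.07.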
